A study of Ictidomys tridecemlineatus with 31 samples.

Results

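The kidneys of 5 13-lined ground squirrels that were cooling into torpor (entrance, Ent) were compared with those of 4 summer active (SA) animals across all 12863 genes of a series that holds 31 animals in 6 states. Members of the comparison were taken from the state label of each animal, and the difference is given as Ent minus SA, so that a negative value is lower in Ent. Ent animals were in the hibernation season, had just spent a warm interval between torpor bouts (interbout arousal, IBA), and were collected while body temperature was falling, whereas SA animals were homeothermic and fattening in late summer. The squirrels of both groups came from a breeding colony or a supplier, bore implanted temperature devices, were anesthetized with isoflurane and bled, were perfused with cold buffer to clear blood, and each gave poly(A) RNA from 1 kidney fragment. The Ent group held 3 females (K155, K5, and K8) and 2 males (K167 and K2), and the SA group held 2 females (K139 and K141) and 2 males (K138 and K140). A further SA animal, the female K137, was left out of the fits by the study and is shown apart. The study removed it because it stood apart when animals were clustered by these expression values, and proposed that it was a timing variant. The SA animals of the fit were thus chosen in part by expression, which favors separation from Ent. Season, food intake, and body temperature all differ between Ent and SA and cannot be told apart in this comparison.

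A hibernating ground squirrel stops eating for months, lives on stored fat, and passes through repeated bouts of torpor in which renal blood flow and filtration nearly cease, separated by short warm intervals in which the kidney works again. The proximal tubule carries most of the work of the active kidney: it takes back filtered glucose, phosphate, and amino acids, breaks down amino acids, makes glucose, and conjugates foreign compounds. Cooling is known to raise a small group of cold-inducible RNA-binding proteins, and transcripts of short half-life, such as those of immediate early genes, report recent signaling and transcription.

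Values are regularized log (rlog) values, which are normalized counts per gene on the log2 scale, from which the authors had removed the mean difference between 2 sequencing experiments. Values of the 10 animals ran from 4.45 to 19.79, with animal medians between 9.74 and 9.88, and the depth behind them is unknown. All SA animals came from experiment 2, as did the Ent animals K155 and K167, whereas K2, K5, and K8 came from experiment 1, which used another library kit. Differences were therefore estimated with limma in a model of state, sex, and experiment over 29 animals of all states, and q is the Benjamini-Hochberg adjusted p over all genes. Values listed by animal follow the order K138, K139, K140, K141 in SA and K155, K167, K2, K5, K8 in Ent. A gene with q under 0.001 is called differentially expressed (DE). The fitted difference can depart from the difference of the group means, as for Fos, where the means differed by -1.16 and the fitted difference was -1.64. Root mean square distances over all genes placed every Ent and SA animal of the fit nearer to its own group than to the other, from 0.226 to 0.395 against 0.362 to 0.445, with K8 farthest from its group. For K137 these distances were 0.484 to SA and 0.477 to Ent, and its 7 inner medulla markers averaged 12.89, against 9.83 to 11.38 in the other 9 animals. Markers of proximal tubule (8 of 8 in the table), loop of Henle (5 of 5), principal cells (5 of 5), and endothelium (9 of 9) were all in the table.

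Between Ent and SA 110 genes were DE, 0.855% of all genes. Of these, 72 (0.56% of all genes) were lower in Ent and 38 (0.295%) were higher, so that 34.5% of the DE genes were higher in Ent (exact binomial 95% interval 25.7 to 44.2, as a description). The decreases were also the larger changes: 40 DE genes were at least 2-fold lower and 7 at least 2-fold higher, and the median difference was -1.05 among the lower and 0.67 among the higher genes. Over all genes the median difference was -0.0019. At q under 0.05 there were 1906 genes (14.8%), of which 1056 genes (8.21%) were lower and 850 (6.61%) higher, and the gene lists are read against these shares. With K137 left out, all 110 DE genes had Ent and SA animals that did not overlap, as did 14.1% of all genes. Genes without overlap made up 6.55% of all genes on the higher and 7.56% on the lower side. The last DE gene had q = 0.000993 and the first gene past the threshold 0.001. Together the DE genes of at least 2-fold made up 0.365% of all genes.

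**Figure D1:**
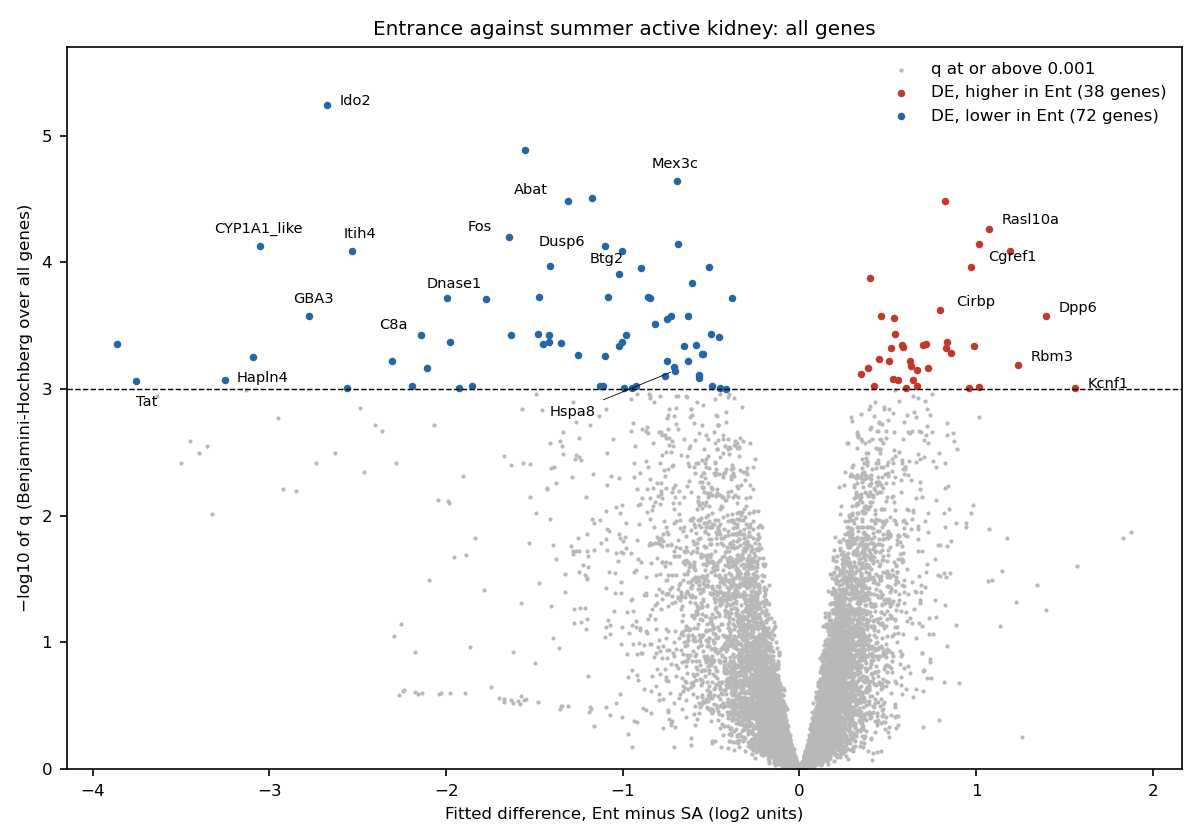
All 12863 genes by fitted difference (Ent minus SA, log2 units, x axis) and −log10 of q (y axis), with the q of 0.001 as a dashed line, 72 DE genes lower in Ent in blue, 38 higher in Ent in red, and 20 named. The blue points reach -3.86, whereas the red points end at 1.56.

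Genes of amino acid breakdown were lower in Ent as a group. Of the 45 measured members, 27 (60%) were lower at q under 0.05, none was higher, 7 were DE, and all 45 had a negative difference, with a median of -0.54. Proximal tubule markers, whose values are given with the transporters, were lower in the same animals. Fewer cells of a type and less RNA per cell cannot be told apart in bulk tissue, and the part of this in the amino acid results was not tested. Tyrosine breakdown held the largest of these differences. Tat, tyrosine aminotransferase, which takes the first step, read 11.55, 13.09, 10.69, and 9.05 in the SA animals and 7.35, 8.62, 8.22, 7.42, and 7.56 in the Ent animals, a 13.5-fold decrease (-3.75 ± 0.65 SE, q = 0.00086). The SA animals were spread over more than 4 log2 units, but the lowest of them, K141, was still above the highest Ent animal. The fold depended on single SA animals, at 7.7 without K139 and 21.5 without K141. It also depended on the fit, as the group means differed by -3.26. The difference was -3.11 in experiment 2 alone (q = 0.0135). The fit of the Ent and SA animals alone gives this same difference by design (q = 0.126), as SA has no experiment 1 animal. Hgd, homogentisate dioxygenase of the same route, was 7.07 to 8.86 in SA and 5.87 to 6.24 in Ent (-1.85 ± 0.33, q = 0.000941). It may have passed the authors' expression minimum through SA alone, in which case a lower Ent value was partly given in advance. The enzyme between Tat and Hgd had 2 transcripts listed as HPD_like, which may share reads. HPD_like_gene12594 differed by -3.33 ± 0.83 (q = 0.0097; -4.10 without K167 and -3.96 without K141). Its groups overlapped, with K141 at 10.83 in SA and K167 at 10.88 in Ent. K137 read 7.70, below all Ent animals, and with it kept the difference was -2.34 (q = 0.139). HPD_like_gene12596 differed by -0.20 ± 0.26 (q = 0.67).

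Tryptophan, lysine, and branched-chain routes showed the same direction. Ido2, an indoleamine dioxygenase that opens the tryptophan ring and is not a member of the list, had the lowest q of all genes. Its SA values were 8.57, 9.13, 8.42, and 8.51, and its Ent values 6.12, 6.61, 6.13, 5.96, and 6.22, a 6.38-fold decrease (-2.67 ± 0.27, q = 5.76e-06). The groups did not overlap, and the gene remained DE without any 1 of the 9 animals and with K137, which lay between the groups at 7.41. Haao (-2.05 ± 0.49, q = 0.0075), Kmo (-0.75 ± 0.19, q = 0.0122), and Kynu (-0.53 ± 0.14, q = 0.0132), further enzymes of the kynurenine route, were lower at q under 0.05, although Kynu had q = 0.0548 without K155. Of the lysine enzymes, Aass was 13.42, 13.62, 13.66, and 13.60 in SA and 12.42, 12.86, 12.45, 12.59, and 12.57 in Ent (-1.10 ± 0.18, q = 0.000545), and Aldh7a1, which acts further along and is outside the list, fell by 0.99 ± 0.18 (q = 0.000978).

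In the breakdown of leucine, isoleucine, and valine, Ivd, isovaleryl-CoA dehydrogenase, was 13.04, 13.39, 13.06, and 13.09 in SA and 11.94, 12.42, 12.31, 12.10, and 12.27 in Ent (-1.0 ± 0.13, q = 8.06e-05), with no overlap. Dbt, a subunit of the branched-chain ketoacid dehydrogenase, fell by 0.59 ± 0.09 (q = 0.000452), and the acyl-CoA dehydrogenases Acadsb and Acad8, both outside the list, fell by 0.76 ± 0.13 (q = 0.000789) and 0.57 ± 0.10 (q = 0.000821). Bckdk, not in the list, the kinase that switches this dehydrogenase off, went the other way: it read 10.39, 10.33, 10.26, and 10.43 in SA and 10.90, 10.74, 10.84, 10.82, and 10.84 in Ent (0.52 ± 0.08, q = 0.000471). Bcat2, which starts the route, differed by -0.19 ± 0.19 (q = 0.549), and its animals overlapped. Among enzymes that move amino nitrogen, Glul, glutamine synthetase, and Abat, GABA transaminase, which the list does not hold, fell by 1.35 ± 0.22 (q = 0.000435) and 1.31 ± 0.16 (q = 3.25e-05). The members Agxt2, an aminotransferase, and Gpt, alanine aminotransferase, fell by 0.92 ± 0.16 (q = 0.000941) and 0.84 ± 0.12 (q = 0.000192). All 4 had SA animals above every Ent animal. With K137 kept, 10 of the 45 members in place of 27 were lower at q under 0.05, and in experiment 2 alone 18 were, against 4.54% and 6.3% of all genes.

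**Figure D2:**
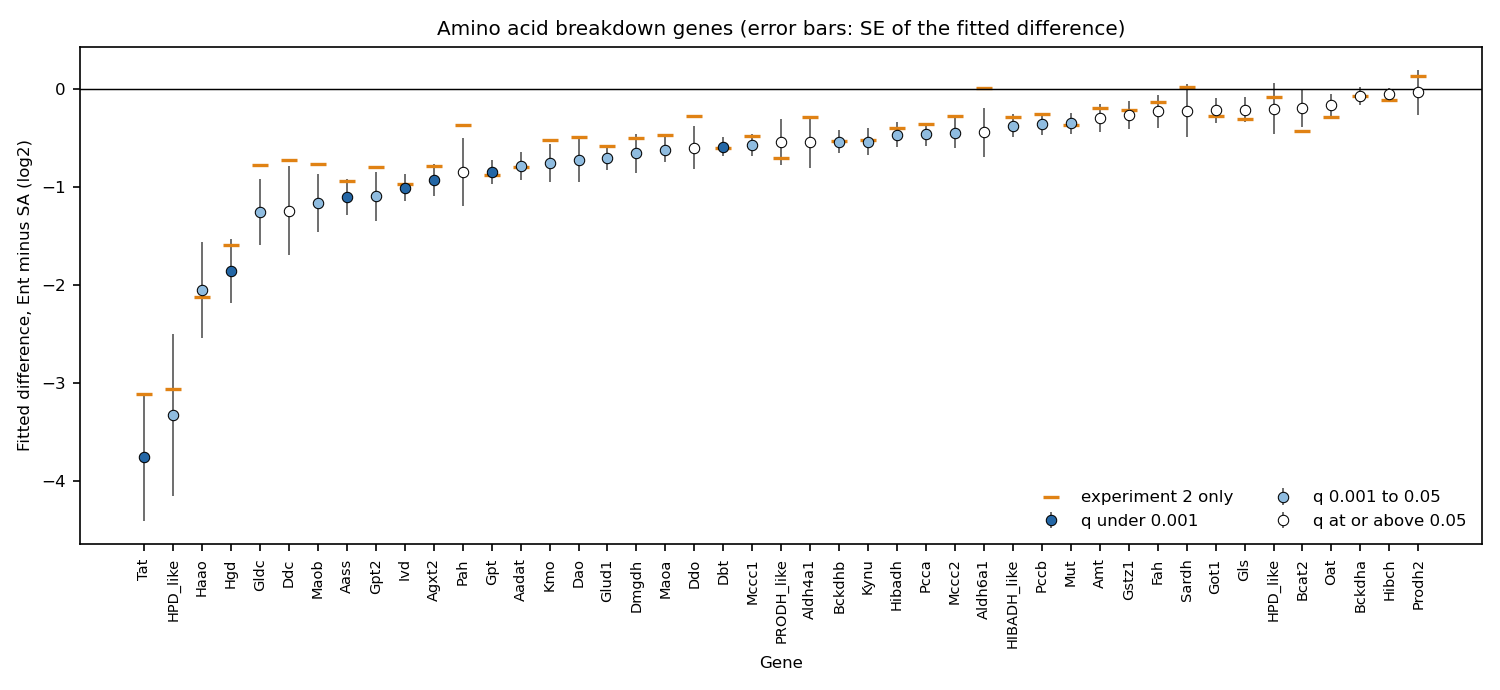
The 45 amino acid breakdown genes ordered by fitted difference (Ent minus SA, log2, y axis; points with SE), filled by q, with the difference in experiment 2 alone (2 Ent and 4 SA animals) as orange bars. Every point lies below 0, from Tat (-3.75) to Prodh2 (-0.03), whereas the orange bars of Prodh2 and a few other genes lie at or above 0.

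Transporters of the proximal tubule were lower as well. Of 48 measured members 17 (35.4%) were lower at q under 0.05 and 1 was higher, and the median difference was -0.63. The only DE member was Slc16a9, a carnitine and monocarboxylate carrier, at 13.45, 13.95, 13.38, and 13.62 in SA and 12.42, 12.41, 12.01, 11.93, and 12.74 in Ent (-1.41 ± 0.19, q = 0.000107). Slc5a2, the glucose carrier SGLT2, was 13.55 to 13.81 in SA and 11.39 to 13.19 in Ent (-1.84 ± 0.49, q = 0.0151). Its Ent values were wide, with K167 the highest, and the difference was -2.49 without it. Slc34a1, the main phosphate carrier, differed by -1.29 ± 0.36 (q = 0.0175), and Slc6a19, a carrier of neutral amino acids, by -1.53 ± 0.42 (q = 0.0164). The member that was higher was Slc20a2, another phosphate carrier (0.39 ± 0.10, q = 0.0122). These counts depended on the animals used: with K137 kept 5 members were lower at q under 0.05, and in experiment 2 alone 6 were, where Slc5a2 (-1.02, q = 0.184) and Slc34a1 (-0.84, q = 0.157) no longer passed. The distal nephron list, with 39 members, had 2 lower (5.13%; 0 or 1 without K155, K2, K5, K8, K138, or K139) and none higher, and a median of -0.07.

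The 8 proximal tubule markers moved with both lists. All of them except Miox are also members of the transporter list, so moving with that list was largely given in advance. Their mean level was 15.22 to 15.56 in SA and 14.24 to 15.15 in Ent, without overlap, 14.73 ± 0.35 (SD, n = 5) against 15.38 ± 0.14 (SD, n = 4; difference -0.65, exact permutation p = 0.0159, 2-sided, the smallest these group sizes allow; adjusted over 14 lists 0.111). All 8 had a negative difference and 2 passed at q under 0.05. With K137, at 14.34, the difference was -0.45 (exact permutation p = 0.135), and over the experiment 2 animals -0.40. Their part in the transport results was not tested. No marker list passed the permutation test after adjustment. A single list at the smallest possible p could not have passed over 14 lists, so nothing is concluded from this. Of the other lists, the intercalated cell markers (6) differed by -0.31 (exact permutation p = 0.0317, adjusted 0.111), the distal convoluted tubule markers (3) by -0.43 and the macrophage markers (5) by -0.37 (exact permutation p = 0.0476 and adjusted 0.111 for each), the fibroblast and stroma markers (9) by -0.41 (p = 0.127), and the inner medulla markers (7) by -0.17 (p = 0.619), all by exact permutation. These tests hold no term for experiment or sex. Over the experiment 2 animals the differences were -0.25 (intercalated cell), -0.25 (distal convoluted tubule), -0.13 (macrophage), -0.20 (fibroblast and stroma), and -0.42 (inner medulla).

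Enzymes that process foreign compounds and vitamin D fell in part. Of 70 measured members, 21 (30%) were lower and 4 (5.71%) higher at q under 0.05, with a median of -0.41. They belong to families of near copies, so that reads could be split between neighbors and single members are uncertain. A transcript outside the list, CYP1A1_like, a cytochrome P450 known as the main target of the aryl hydrocarbon receptor, was 10.63, 10.37, 10.24, and 11.21 in SA and 7.31, 8.05, 7.79, 7.56, and 7.55 in Ent. This is an 8.29-fold decrease (-3.05 ± 0.40, q = 7.39e-05), and it held without any 1 of the 9 animals. It was also lower in Ent than in IBA (-1.15, q = 0.0267) and than in spring dark (SpD) animals, which are homeothermic after hibernation (-2.12, q = 0.000596). The DE members were a glutathione transferase listed as GSTM4_like_gene20552 (-1.47 ± 0.21, q = 0.000188) and the monooxygenase FMO1 (FMO1_gene3727, -1.25 ± 0.21, q = 0.000542). CYP24A1, which inactivates vitamin D, differed by -2.09 ± 0.65 (q = 0.0323), but by -0.91 in experiment 2 alone (q = 0.292) and by -2.69 without K167, and it had q of 0.05 or more without K2, K5, K140, or K141. Without K155 12 members were lower, with K137 kept 8 were, and the 4 higher members were 0 to 2 in number without K155, K2, K5, K8, K138, K139, or K140.

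Several of the largest decreases were genes of secreted or surface proteins that belong to none of these routes. Hapln4, a link protein of hyaluronan matrices, was 10.79 to 12.13 in SA and 7.71 to 9.74 in Ent (-3.09 ± 0.51, q = 0.000557). Itih4, a plasma protein of the inter-alpha-trypsin inhibitor family, read 10.19, 8.53, 10.18, and 9.02 in SA and 6.73, 7.22, 7.27, 7.17, and 7.52 in Ent (-2.53 ± 0.34, q = 8.06e-05). Both had SA animals spread over more than 1 log2 unit that still lay wholly above Ent, and the difference of Hapln4 was -3.81 without K167. C8a, a component of the terminal complement complex, was 9.98 to 10.72 in SA and 7.81 to 9.44 in Ent (-2.14 ± 0.34, q = 0.000377). Dnase1, a secreted nuclease abundant in kidney, was 15.64 to 15.86 in SA and 13.74 to 14.39 in Ent (-1.99 ± 0.29, q = 0.000192). K137, at 13.65, lay below all Ent animals for Dnase1. The collagen processing enhancer Pcolce2 (-2.11 ± 0.36, q = 0.000686), the cytosolic glucosidase GBA3 (-2.77 ± 0.42, q = 0.000264), the phosphatase Dusp15 (-1.98 ± 0.31, q = 0.000423), the homeobox gene Tlx2 (-1.63 ± 0.26, q = 0.000377), and Osgin1, an oxidative stress response gene (-1.48 ± 0.23, q = 0.000371), completed the list with PPDPFL_like (-2.56 ± 0.45, q = 0.000978). Without K167 the difference was -3.41 for GBA3 and -3.16 for PPDPFL_like.

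Immediate early genes, which are transcribed within minutes of a stimulus and whose messages decay quickly, were lower in Ent. Of 31 measured members 10 (32.3%) were lower at q under 0.05 and none was higher, 5 were DE, and the median was -0.40. Fos, a subunit of the AP-1 factor, was 9.05, 9.34, 9.70, and 8.84 in SA and 7.63, 7.86, 8.35, 8.06, and 8.49 in Ent, a 3.12-fold decrease (-1.64 ± 0.21, q = 6.28e-05). The Ent animals of experiment 1 lay above those of experiment 2, and all lay below SA. Dusp6, a phosphatase that ends ERK signaling, was 11.13 to 11.41 in SA and 9.62 to 10.60 in Ent (-1.10 ± 0.14, q = 7.4e-05). Zfp36, which drives the decay of AU-rich messages, fell by 1.08 ± 0.16 (q = 0.000188), and the antiproliferative gene Btg2, at 10.49 to 10.94 in SA and 9.73 to 10.04 in Ent, fell by 0.89 ± 0.12 (q = 0.00011). The list, chosen with earlier results of these data known, also holds Mex3c, an RNA-binding ubiquitin ligase. Mex3c had the smallest error of the 5 DE members, at 9.93 to 10.14 in SA and 9.04 to 9.55 in Ent (-0.70 ± 0.08, q = 2.26e-05).

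The 5 DE members were DE in each of the 9 fits that left out 1 animal and also with K137 kept. Egr1, another early transcription factor, differed by -1.63 ± 0.35 (q = 0.00395). Srf, outside the list, a factor that binds many early gene promoters, fell by 0.45 ± 0.08 (q = 0.000975). For Jun the animals overlapped, from 10.48 to 11.15 in SA and 10.46 to 11.23 in Ent (-0.40 ± 0.18, q = 0.14). These pairs share the Ent animals, and over all genes 13.1% passed q under 0.05 in Ent against IBA and 10.6% against SpD (0.746% and 0.63% at q under 0.001). Against the warm IBA animals, Ent was also lower for Fos (-0.73, q = 0.00941), Dusp6 (-0.62, q = 0.00231), Zfp36 (-0.58, q = 0.00711), Btg2 (-0.70, q = 0.000264), and Mex3c (-0.42, q = 0.000457). Against SpD it was lower for all 5 as well, from -0.97 (q = 0.000159) for Zfp36 to -0.50 (q = 0.0111) for Dusp6.

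Heat shock chaperones, which fold proteins and are induced by heat, were lower. Of 28 measured members 12 (42.9%) were lower at q under 0.05, none was higher, and the median was -0.40. Hspa8, the constitutive cytosolic chaperone of the family, was 15.98, 16.12, 15.91, and 15.65 in SA and 15.30, 15.21, 15.15, 15.06, and 15.45 in Ent (-0.71 ± 0.12, q = 0.000715), and it was the only DE member. Hsph1, its nucleotide exchange factor, was 10.76 to 11.37 in SA and 9.79 to 10.41 in Ent (-1.10 ± 0.21, q = 0.00144). K137 stood apart for Hsph1 at 13.52. Hspd1, the mitochondrial chaperonin (-0.48 ± 0.09, q = 0.00119), and Hsp90aa1 (-0.40 ± 0.08, q = 0.00285) were lower at q under 0.05. With K137 kept 9 members were lower, and in experiment 2 alone 14 were.

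The cold-inducible RNA-binding proteins were higher in Ent. Cirbp read 11.98, 12.20, 12.12, and 12.20 in SA and 12.81, 12.96, 13.09, 13.12, and 12.90 in Ent, a 1.73-fold increase (0.79 ± 0.12, q = 0.000237). Its relative Rbm3 read 10.12, 10.17, 10.11, and 10.45 in SA and 11.56, 11.62, 11.57, 10.94, and 11.43 in Ent, a 2.36-fold increase (1.24 ± 0.21, q = 0.000649). For both genes all Ent animals were above all SA animals, and K137 lay between the groups for Cirbp (12.47) and level with the lowest Ent animal for Rbm3 (10.98). Cirbp was higher in Ent than in IBA (0.51, q = 0.00236), whereas Rbm3 differed by 0.18 from IBA (q = 0.522). Of the 54 members of the list of cold-inducible and splicing genes, 10 (18.5%) were higher at q under 0.05 and 2 (3.7%) lower, with a median of 0.03. The higher splicing genes included the splicing factor Srsf5 (0.59 ± 0.13, q = 0.00471), Pnisr (0.53 ± 0.11, q = 0.00219), and Luc7l (0.53 ± 0.11, q = 0.00302), and the lower were Srsf3 (-0.31 ± 0.08, q = 0.014) and SRSF3_G17416, a second transcript of that name (-0.30, with q of 0.05 or more without K155, K167, K8, K138, K139, or K140).

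**Figure D3:**
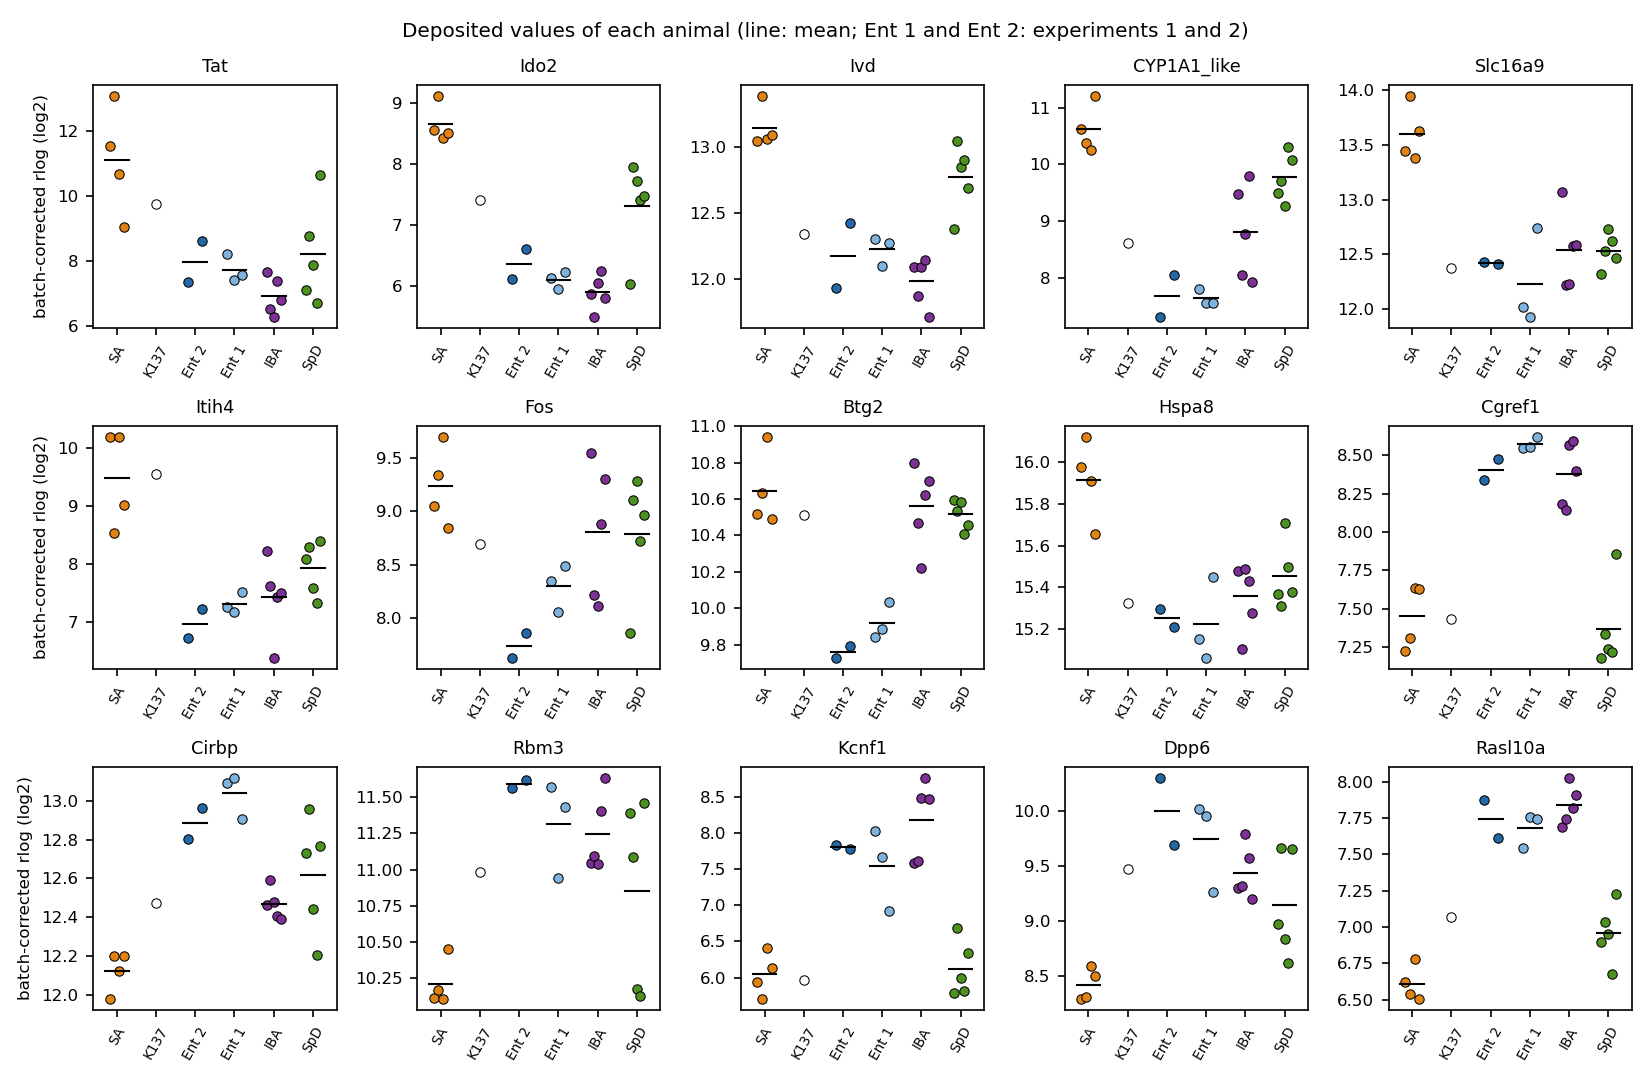
Deposited values (batch-corrected rlog, log2, y axis; each panel has its own range and starts above 0) of 15 genes, with 1 point for each animal: 4 SA, K137, the Ent animals of experiments 2 and 1, 5 IBA, and 5 SpD; lines are means. The SA points lie wholly above the Ent points in the panels from Tat to Hspa8 and wholly below them in the panels from Cgref1 to Rasl10a, and K137 lies within the range of the Ent points for Ivd, Slc16a9, Hspa8, Rbm3, and Dpp6.

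Genes of fat use were split. Of 42 measured members of fatty acid oxidation and ketone body metabolism, 7 (16.7%) were higher and 8 (19%) lower at q under 0.05, none was DE, and the median was -0.14. Cpt1a, which commits fatty acids to mitochondria, was 12.49 to 12.71 in SA and 12.63 to 13.56 in Ent (0.68 ± 0.23, q = 0.0487), with K8 the lowest Ent animal. Slc25a20, the carnitine carrier of the same step (0.54 ± 0.17, q = 0.0346), and Hadha, of the trifunctional protein (0.50 ± 0.13, q = 0.015), were higher, as were 2 of 3 transcripts listed as CYP4A11_like, fatty acid hydroxylases that may share reads. Bdh1, a ketone body dehydrogenase (-0.89 ± 0.17, q = 0.00206), Acsl1, which activates fatty acids (-0.70 ± 0.13, q = 0.00113), and Acadm, the medium-chain dehydrogenase (-0.40 ± 0.12, q = 0.0255), were lower. The 7 higher members were sensitive to single animals: without K155 or K140 1 was left, without K138 or K139 2, and without K167, K2, or K5 4. Single genes lost q under 0.05 in the same way: Hadha without K155, Slc25a20 without K155, K138, K139, or K140, Acadm without K155, K138, or K139, and Cpt1a without any 1 animal other than K167 or K8.

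In the lists of glycolysis and glucose production 1 member was DE. Pdk3, a pyruvate dehydrogenase kinase, fell by 0.65 ± 0.11 (q = 0.000459), with SA at 9.70 to 10.04 and Ent at 9.14 to 9.47. Pdk4, the isoform known to rise with fasting, overlapped between groups, at 10.93 to 11.76 in Ent within a wider SA range (0.49 ± 0.43, q = 0.484). The glucose carrier Slc2a2 was lower (-1.35 ± 0.28, q = 0.00257), and Pck1 and G6pc, of glucose production, differed by 0.44 ± 0.34 (q = 0.409) and -0.66 ± 0.30 (q = 0.142). Of the 28 glycolysis members 7 (25%) were lower at q under 0.05, 2 without K155 and 4 without K2, K140, or K141, and of the 12 genes of glucose production 2 were lower, 1 without K139 or K140 and 4 without K167. Gpd2, in no list, the mitochondrial glycerol phosphate dehydrogenase, rose by 0.53 ± 0.09 (q = 0.000827).

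Among the 15 largest increases, Kcnf1 and Dpp6 stood first. Kcnf1, a subunit that modifies potassium channels, was 5.94, 5.71, 6.41, and 6.14 in SA and 7.83, 7.78, 8.03, 7.67, and 6.93 in Ent (1.56 ± 0.28, q = 0.000978). Dpp6, another potassium channel auxiliary protein, was 8.30, 8.31, 8.59, and 8.51 in SA and 10.30, 9.69, 10.02, 9.96, and 9.26 in Ent (1.40 ± 0.21, q = 0.000264). K8 was the lowest Ent animal for both, and still above SA. Kcnf1 averaged 8.18 ± 0.55 (SD, n = 5) in IBA and 6.12 ± 0.38 (SD, n = 5) in SpD. Rasl10a, a small GTPase of the Ras family, was 6.51 to 6.78 in SA and 7.55 to 7.88 in Ent (1.07 ± 0.13, q = 5.41e-05), and Cgref1, a calcium-binding secreted protein, was 7.23 to 7.64 in SA and 8.34 to 8.62 in Ent (0.97 ± 0.13, q = 0.000109). Both were DE without any 1 of the 9 animals and with K137 kept. Both were also higher in Ent than in SpD, by 0.75 (q = 0.00042) and 1.14 (q = 4.96e-06), and differed from IBA by -0.13 (q = 0.467) and 0.13 (q = 0.465).

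Other genes among the 15 largest increases had differences from 0.63 to 1.01. Sat1, the rate-limiting enzyme of polyamine catabolism, was 11.03 to 11.34 in SA and 11.85 to 12.07 in Ent (0.86 ± 0.14, q = 0.000523). The lipid transfer gene Stard10 (0.84 ± 0.13, q = 0.000423), the sterol transporter subunit Abcg8 (0.83 ± 0.13, q = 0.000471), the tetraspanin Cd63 of late endosomes (0.67 ± 0.11, q = 0.000708), and Prkar1b, a regulatory subunit of protein kinase A (0.64 ± 0.11, q = 0.000849), rose as well. Ttc25, a docking factor of ciliary dynein (0.99 ± 0.16, q = 0.000454), Ccdc169 (1.01 ± 0.18, q = 0.000963), Tmem182 (0.67 ± 0.12, q = 0.000941), and Phf7 (0.63 ± 0.11, q = 0.000659) completed the 15. Of these, Abcg8 (0.52, q = 0.00508), Ccdc169 (0.70, q = 0.00494), Prkar1b (0.41, q = 0.00736), Phf7 (0.34, q = 0.0166), and, just under 0.05, Tmem182 (0.30, q = 0.04999) were also higher in Ent than in IBA.

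Genes of DNA replication had 6 of 41 members (14.6%) higher and 3 (7.32%) lower at q under 0.05, with a median of 0.14. Lig1, the ligase that joins Okazaki fragments, was 9.11 to 9.28 in SA and 9.33 to 9.76 in Ent (0.51 ± 0.08, q = 0.0006), and Rfc5, of the clamp loader, rose by 0.39 ± 0.07 (q = 0.000684). K137 was above all Ent animals for Lig1, at 10.16, and with it the difference was 0.30 (q = 0.202). The 6 higher members became 10 without K8 and 3 without K139, and 1 with K137 kept. Of 92 cilium genes 16 (17.4%) were higher and 4 (4.35%) lower, with Cfap70 at 0.53 ± 0.12 (q = 0.00547) and Dnah17 at -0.82 ± 0.22 (q = 0.0164). Without K155 or K140 9 cilium genes were higher, the 4 lower became 2 without K155 and 1 without K139, and Dnah17 had q = 0.061 without K138 and 0.0606 without K139. Of 38 DNA repair genes 5 (13.2%) were higher, 2 or 3 without K155, K5, K138, K139, or K140, and 2 (5.26%) lower. Among the latter Lig4, of nonhomologous end joining, differed by -0.44 ± 0.09 (q = 0.00246), and it was also lower than in IBA (-0.53, q = 0.000196).

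In the circadian clock list 1 of 21 members passed at q under 0.05, whereas in experiment 2 alone 2 were higher and 2 lower, as with no term for experiment. The member that passed was Nfil3, a repressor of clock output genes, at 8.79 to 9.11 in SA and 7.94 to 8.5 in Ent (-0.95 ± 0.17, q = 0.000978). Nr1d1, encoding REV-ERBα, was 8.86 to 9.65 in SA and 9.76 to 11.26 in Ent without overlap (0.74 ± 0.34, q = 0.143), but 0.92 with q = 0.0334 in experiment 2 alone and 1.11 with q = 0.0226 with no term for experiment. Cry1 differed by -0.52 ± 0.18 (q = 0.052; -0.61, q = 0.016 in experiment 2 alone), Per3 by 0.53 ± 0.23 (q = 0.128), and Dbp by 0.49 ± 0.23 (q = 0.153). For Clock, Arntl, Npas2, Per1, Per2, Cry2, and Nr1d2 the differences lay between -0.34 and 0.34, with q from 0.497 to 0.962.

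Tubule injury genes gave few calls. Of 35 injury and matrix genes 2 (5.71%) were lower at q under 0.05 and none higher, with the smooth muscle actin Acta2 among the lower (q = 0.0732 without K141). Havcr1 (KIM-1) was 6.73 to 7.72 in SA and 6.22 to 8.14 in Ent (-0.11 ± 0.44, q = 0.908). The other tubule injury markers, Lcn2 (0.46 ± 0.72, q = 0.72), Clu (0.04 ± 0.38, q = 0.965), and Spp1 (0.64 ± 0.38, q = 0.27), also had overlapping animals, and their standard errors were among the wider ones given here. Of 30 immune and complement genes 7 (23.3%) were lower, 4 without K155, with C4a at 11.84 to 12.33 in SA and 9.79 to 10.96 in Ent (-1.98 ± 0.48, q = 0.00796) and C7 at -1.25 ± 0.38 (q = 0.0276), which had q of 0.05 or more without K155, K138, or K141. Macrophage markers (-0.37) and the 1 measured of 10 lymphocyte and neutrophil markers, Cd79a (9.68 to 10.41 in SA and 9.05 to 9.98 in Ent, difference of means -0.69, exact permutation p = 0.0317, adjusted 0.111), were lower too. Over the experiment 2 animals these differences were -0.13 and -0.39. All of these measured markers are themselves members of the immune and complement list, so they are no separate observation. Their part in it was not tested. Of 29 antioxidant genes 8 (27.6%) were lower, 2 without K155, 5 without K139 or K141, and 0 with K137 kept. They included Gpx3, the plasma glutathione peroxidase made by the kidney and the most abundant gene named here, at 19.48 to 19.79 in SA and 18.58 to 19.12 in Ent (-0.99 ± 0.26, q = 0.0149), with q = 0.0545 without K155.

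The respiratory chain had 10 of 83 members (12%) lower and none higher, with 0 when K137 was kept and 3 without K155, 4 without K141, 5 without K140, 6 without K139, and 16 without K8. The mitochondrial ribosome had 2 lower and 1 higher of 81. The 2 lower became 7 without K8, 4 without K138, 1 without K139, and 0 without K155. In the unfolded protein and integrated stress response 3 of 34 were lower. None of 104 cytosolic ribosome or 46 proteasome genes passed by limma at q under 0.05 (8 and 2 at an unadjusted p under 0.05), and their medians were 0.16 and 0.01. Of 26 cell death regulators 1 was lower and 2 were higher, the BH3 gene Bmf (0.68 ± 0.16, q = 0.00611) and the caspase-8 inhibitor Cflar (0.59 ± 0.18, q = 0.0324, and 0.05 or more without any 1 of K155, K167, K2, K138, K140, and K141), and Fadd, an adaptor of death receptors outside the list, fell by 0.61 ± 0.09 (q = 0.000145). The hypoxia list had 4 of 19 members (21.1%) lower, with Ndrg1 at -1.01 ± 0.24 (q = 0.0082). Fatty acid and sterol synthesis had 5 of 33 members (15.2%) lower, 8 without K140, led by Msmo1 of cholesterol synthesis (-1.28 ± 0.24, q = 0.00127). The remaining lists had 1 member (osmolyte response, of 10, higher), 2 (renin-angiotensin system, of 16, lower), and 3 (insulin and glucocorticoid response, of 30, lower). Apart from the mitochondrial ribosome, counts of 1 to 3 moved by at most 2 with single animals left out.

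**Figure D4:**
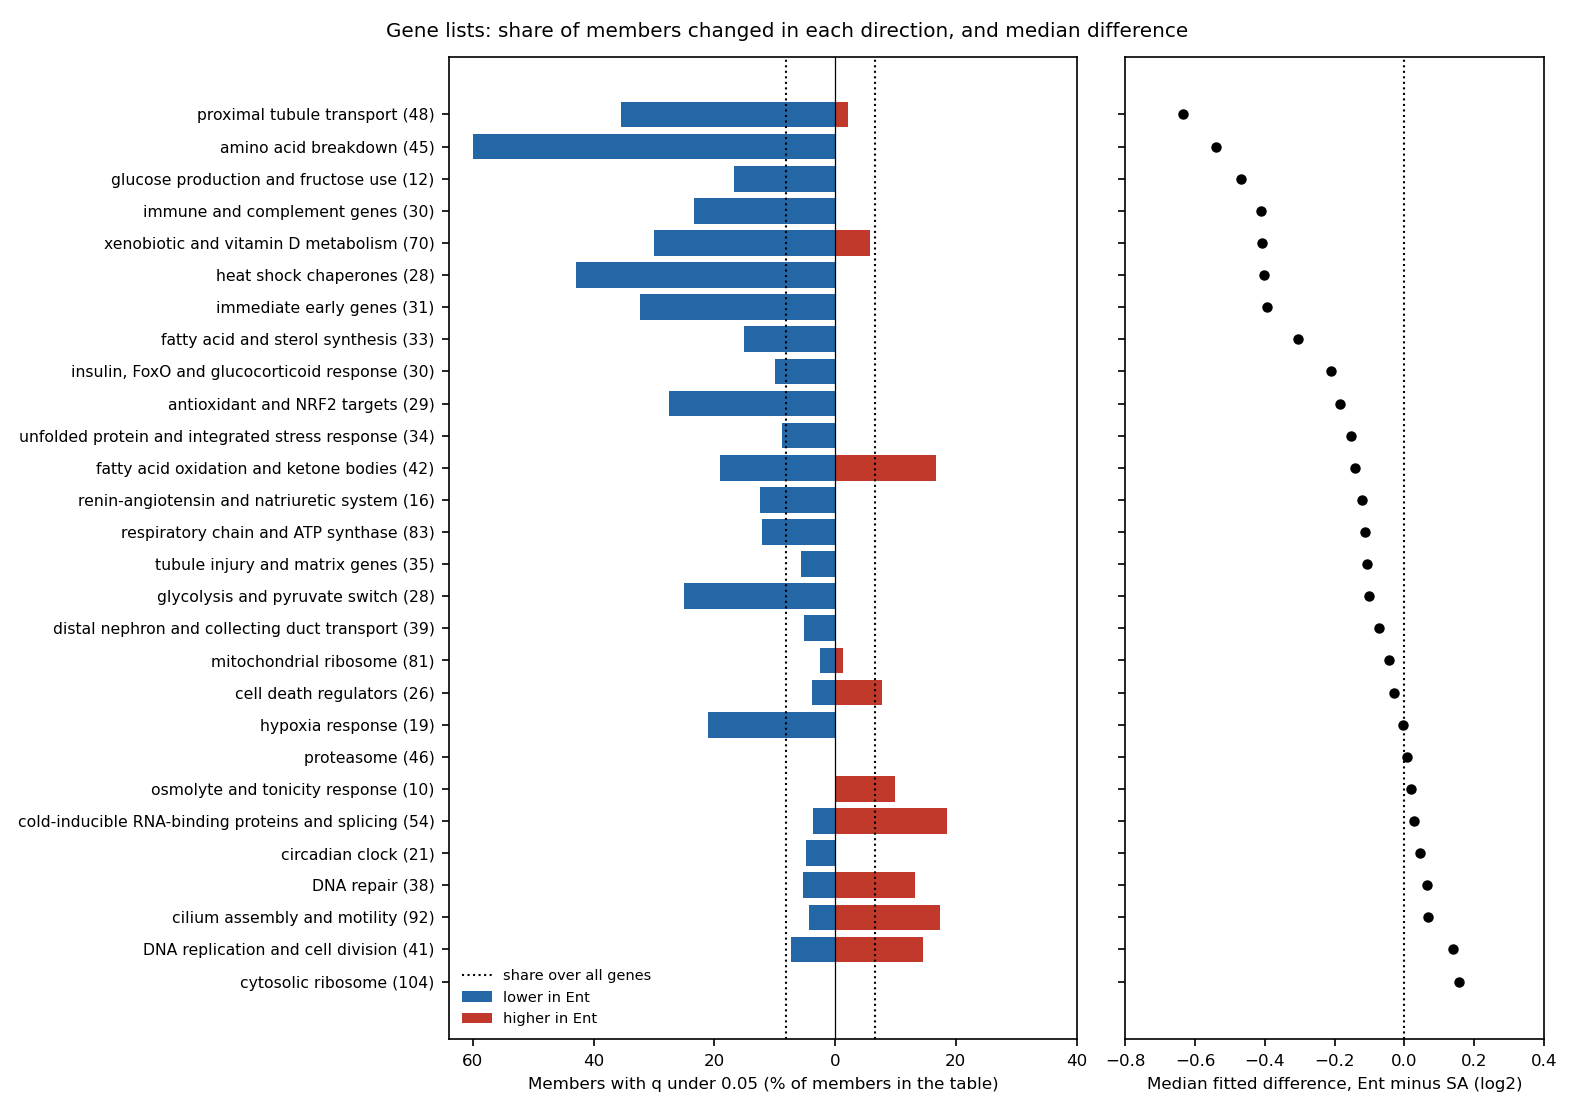
For each of 28 gene lists (number of measured members in parentheses), the percentage of members with q under 0.05 lower (blue, to the left) and higher in Ent (red, to the right), with the shares over all genes, 8.21% and 6.61%, as dotted lines, and at right the median difference (log2). Amino acid breakdown, heat shock chaperones, proximal tubule transport, and immediate early genes have the longest blue bars, from 60% to 32.3%.

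The number of DE genes depended on the animals and on the fit. In experiment 2 alone, with 2 Ent and 4 SA animals, all 110 DE genes had the same sign. As each group there has equal numbers of females and males, the absence of overlap fixed this sign in advance. All 110 also had q under 0.05 there, as did 12.2% of all genes (5.91% higher, 6.3% lower). In that fit 10 genes of the table were DE (0.0777%), 5 in each direction (0.0389%). Fitted with the Ent and SA animals alone, 4 genes were DE, none of them among the 110, and 67 of the 110 had q under 0.05. In this fit the experiment 1 animals K2, K5, and K8 do not enter the difference, which equals that of experiment 2 alone. With K137 kept 34 genes were DE (0.264%), 12 higher (0.0933%) and 22 lower (0.171%), of which 31 were among the 110, and 106 of the 110 had q under 0.05, against 8.4% of all genes (3.86% higher, 4.54% lower). For 84 of the 110 genes K137 lay on the Ent side of the 4 other SA animals, and its median position was 0.58 on a scale where the SA mean is 0 and the Ent mean is 1. The number of DE genes also fell when single animals were left out: 25 without K155, 28 without K139, 35 without K138, 37 without K140, 67 without K2, and 72 without K5, whereas it was 92 without K141, 105 without K167, and 138 without K8. In all 9 of these fits the 110 genes had q under 0.05, and 19 of them stayed DE throughout. Over all genes, 1195 (without K155) to 2348 (without K8) had q under 0.05 in these fits. The 110 genes were chosen by q from the same animals, so passing this looser threshold was largely given in advance. A test by limma of whether the Ent minus SA difference itself differed between males and females gave 0 genes at q under 0.05 and 185 at an unadjusted p under 0.05.

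**Figure D5:**
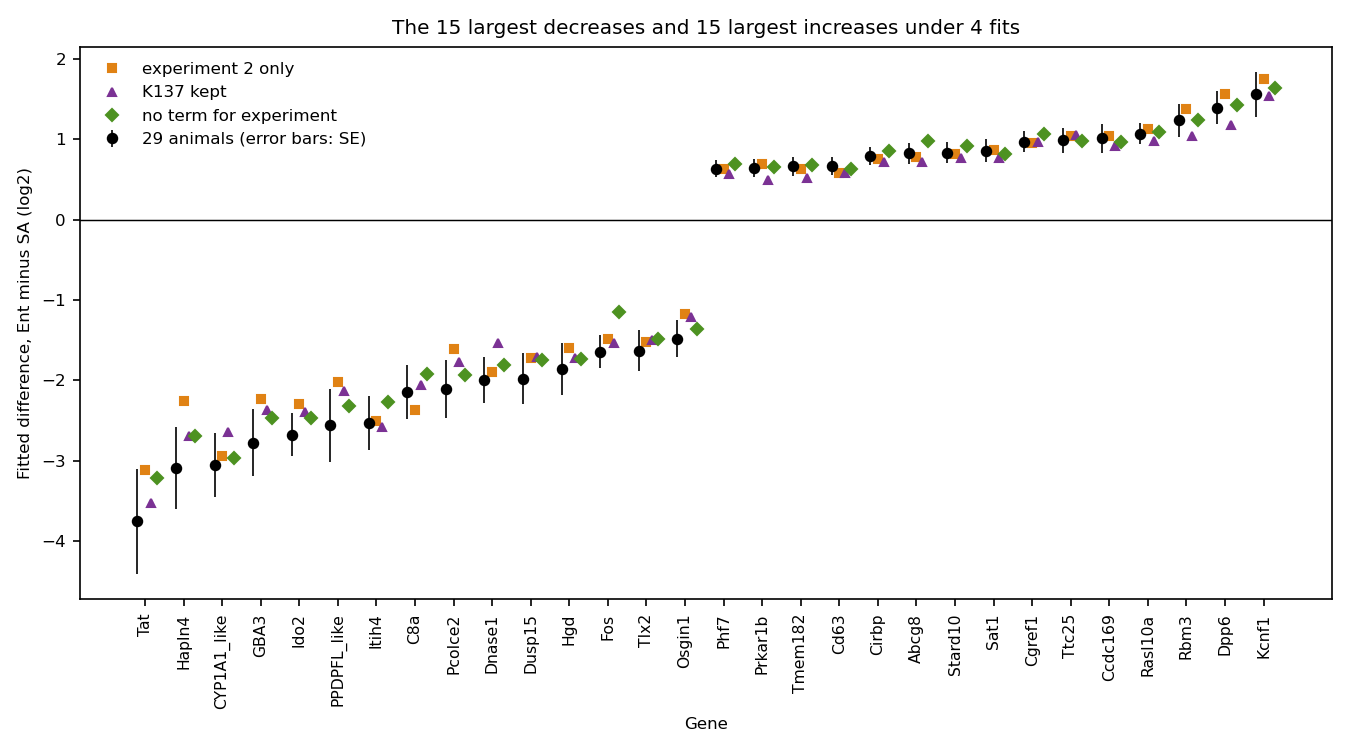
Fitted difference (Ent minus SA, log2, y axis) of the 15 largest decreases and 15 largest increases among DE genes with a symbol, in the 29 animals (black, with SE), in experiment 2 alone, with K137 kept, and with no term for experiment. All 4 fits lie on the same side of 0 for each of the 30 genes. These genes were chosen without overlap of Ent and SA animals and with the same sign in experiment 2 alone. Their side in that fit was thus given in advance. For Fos the fit without the term gave -1.15 against -1.64.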

How the data were processed

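The authors cut adaptors off with cutadapt, set mitochondrial reads aside with HISAT2, assigned reads to transcripts of HiC_Itri_2 by Salmon, and summed them per gene (tximport). Genes had to pass an rlog minimum in most animals of at least 1 state, so a gene that passed only through its high group had to differ. Hgd and Tlx2 may be such genes. Their means were 7.76 and 7.74 in SA, 6.07 and 6.24 in Ent, 6.02 and 6.54 in IBA, and 7.30 and 6.77 in SpD. The deposited table holds log2-scale rlog values, made by the authors with DESeq2, after limma's removeBatchEffect. Experiment means were equal over all 31 animals, so no state had been protected. Counts and depth are not analysed here, the count test of the study could not be run, and rlog shrinks low genes, which understates their folds. Strand-specific reads were used.

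The study's model was kept with another tool: limma 3.58.1 (R 4.3.3) estimated Ent minus SA from 29 animals (without K113 and K137), with state, sex, and experiment as terms and an intensity trend. Adjustment was by Benjamini-Hochberg over 12863 genes. Degrees of freedom were not reduced for the earlier batch correction. SA has no experiment 1 animal, so the experiment term rests on Ent, IBA, and SpD. Marker means were compared by exact permutation (scipy 1.17.1), without terms for sex or experiment. Tests were 2-sided. Each replicate is a separate animal, numbered in accession order and not paired.

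The comparison, the 28 gene lists, and the 14 marker lists with a measured gene were chosen with earlier results of these data known. Named are DE genes with a symbol, without overlap, and with the same sign in experiment 2 alone (the 15 largest each way), up to 5 DE members per list or else the 2 of largest difference, and fixed clock, injury, and fuel genes. Genes said to lie outside a list, and further list members such as Haao, Egr1, Jun, Dbt, Gpt, Slc34a1, Srsf5, Cpt1a, and Bdh1, were chosen after their values were seen. Symbols of 81 of 91 DE genes were found in RefSeq's mIctTri1.hap1 table, another assembly, and positions are left out. The fit was tested on simulated data. Results of some genes named by the rule are not reported here.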

Additional observations from a re-analysis of the deposited data

Results flagged for a closer look

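In 84 groups of values (28 genes and 14 marker lists in Ent and in SA), 6 held 1 animal far from the others by Dixon's gap test at the 95% level, where chance flags about 1 in 20 groups. Among the SA animals, K139 was high for Ivd (13.39) and Glul (15.82), and K141 was low for Nfil3 (8.79). Among the Ent animals, K5 was low for Rbm3 (10.94) and high for the red blood cell markers (10.87, a mean of 2 genes) and the adipose markers (10.75, a mean of 2 genes). In each of these genes the animal lay on its own group's side of the other group.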

How the results depend on the processing

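The 110 DE genes became 23 in all 31 animals, 34 with K137 kept, 316 with no term for experiment, 4 in the fit of the Ent and SA animals alone, 10 in experiment 2 only, 661 at q under 0.01, and 1906 at q under 0.05. Leaving out 1 animal gave 25 (without K155) to 138 (without K8). Fits added after seeing the data gave 0 genes by limma for experiment 2 with Ent and SA animals alone (260 at q under 0.05) and 11 for Ent and SA alone with no term for experiment. The share of DE genes higher in Ent, 34.5%, was 44.3% with no term for experiment, 0% in Ent and SA alone, 50% in experiment 2 only, 18.2% in Ent and SA alone with no term for experiment, and 44.6% at q under 0.05, and 22.9% to 40.6% with 1 animal left out. The cause of these changes was not tested, and several of the fits also hold fewer animals. With the term for experiment, the fit of Ent and SA alone takes its difference from K155 and K167 among the Ent animals. Animal weights, median centering, a robust prior variance, fits without the sex term or the intensity trend, and a mean of at least 8 gave 93 to 149. No paired analysis was possible because replicate numbers follow accession order. Precision is limited by 5 and 4 animals, and depth is unknown.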

Other observations

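Of the 110 DE genes 19 had no symbol that names a gene. The largest decrease of all was in one of these, G26914, which with G26909 was chosen after its values were seen. It stood at 12.20, 14.25, 13.46, and 14.92 in SA and 9.41, 9.77, 10.71, 10.39, and 9.90 in Ent (-3.86 ± 0.62 SE, q = 0.000441), and G26909 fell by 3.25 ± 0.56 (q = 0.000849). K137 read 13.25 for G26914, within the range of the other SA animals. The Ent mean of G26914 was 10.03 ± 0.51 (SD, n = 5), that of IBA 11.28 ± 1.03 (SD, n = 5), and that of SpD 10.44 ± 1.29 (SD, n = 5). The red blood cell markers, 2 of 7 in the table, averaged 10.25 to 11.32 in SA and 9.26 to 10.87 in Ent (difference -1.05, exact permutation p = 0.0476, adjusted 0.111; -1.42 over the experiment 2 animals). The difference came mostly from HBA1 (fitted -2.26, limma q = 0.0713, with overlapping animals). The other, Slc4a1, had a fitted difference of -0.07 and is also an intercalated cell marker. The part of these markers in the results was not tested.

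Slc14a2, the urea transporter of the inner medulla, ranged from 6.17 to 10.43 in SA and from 6.49 to 9.90 in Ent (0.41 ± 1.13 SE, q = 0.855), and K137 read 13.51. K140 and K167 held the lowest values of their groups.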
